A study of Mus musculus with 19 samples.

Results

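Chromatin accessibility was examined at 8 genes of the Adamts family in mouse neural stem and progenitor cells (NSPs) and in the cells they become as they differentiate towards astrocytes, without and with the inflammatory cytokine tumor necrosis factor (TNF). Of the 90154 accessible regions (peaks) in the table, 91 had their centre in Adamts1, Adamts4, Adamts5, Adamts6, Adamts9, Adamts12, Adamts17 or Adamts20, or within 30 kb of an end of these genes. RefSeq (GRCm38.p6) places Adamts1 at chr16:85793827-85803113, Adamts4 at chr1:171250129-171262267, Adamts5 at chr16:85858157-85901125, Adamts6 at chr13:104286518-104496695, Adamts9 at chr6:92772699-92944450, Adamts12 at chr15:11064773-11349232, Adamts17 at chr7:66839699-67153171 and Adamts20 at chr15:94268314-94432074. Of the 91 peaks, 63 lay inside a gene and 28 outside. All 91 passed the filter on low values, and their mean level over the libraries ranged from 27.1 to 1885 normalised reads. The set was chosen by a TNF response: a peak beyond Adamts20 is among the strongest TNF gains of the series at both times. The TNF values of that peak are therefore given as a description without a test, although the peak enters the counts of calls.

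ADAMTS proteins are secreted zinc metalloproteases that carry thrombospondin motifs and cut components of the extracellular matrix. Adamts1, Adamts4, Adamts5, Adamts9 and Adamts20 belong to the branch that cleaves large chondroitin sulfate proteoglycans such as aggrecan and versican, and proteoglycans of this kind (brevican, neurocan, versican) make up much of the matrix of the brain. Adamts12 is related to Adamts7 and cleaves cartilage oligomeric matrix protein. Adamts6 is the close relative of Adamts10 and Adamts17 that of Adamts19, enzymes linked to fibrillin microfibrils.

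NSPs had been taken from the ventricular zone of wild type C57BL/6J embryos at embryonic day 14, each culture from 1 brain, and were kept as floating neurospheres with epidermal growth factor. Differentiating cells were plated in medium with fetal bovine serum, without or with TNF at 50 ng/ml. Of the 6 groups, NSPs, untreated cells at 24 h and at 72 h, and TNF-treated cells at 24 h and at 72 h had 3 libraries each, and untreated cells at 1 week had 4. The methods of the accessibility assay describe no sorting of cells, and a change in how open a region is in each cell and a change in the share of cells that have it open cannot be told apart.

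Reads in peaks numbered between 9640256 and 39349111 per library, and the NSP libraries were the deepest. NSP replicate 1 stood apart over the 91 peaks, with correlations of log2 values of 0.927 and 0.928 to the other NSP libraries, which correlated at 0.982 with each other. In the other groups the lowest correlation was 0.944. Without replicate 1 the set had 24 higher and 23 lower peaks at 24 h against NSPs (23 and 23 with it), and for several peaks below the change from NSPs is given also without it. Names of the 72 h and 1 week libraries carry a tag that the NSP and 24 h names lack, so that time and this difference in naming cannot be told apart in 72 h against 24 h. Of 7 astrocyte marker genes, 6 had a peak at a gene end, with a mean level over these peaks of 225 to 251 in NSPs, 234 to 276 at 24 h, 260 to 279 at 72 h and 194 to 218 at 1 week. The 72 h range lay above that of the NSPs, the 24 h range overlapped it and the 1 week range lay below it, and Aqp4 had no such peak. The peak of Gfap, which encodes an intermediate filament protein of astrocytes, rose from a mean of 108 in NSPs to 489 at 24 h (log2 fold change 2.35 ± 0.22, adjusted p 6.36e-10 by limma-trend). It was the only 1 of the 6 called higher in this step, and 3 were called lower (Slc1a3, Slc1a2 and S100b). From 72 h to 1 week 0 of the 6 were called higher and 3 lower. With TNF the range was 191 to 213 at 24 h and 194 to 206 at 72 h, below the untreated libraries of each time, and 0 of the 6 peaks were called lower at 24 h and 2 at 72 h (Gfap and S100b). For progenitor markers (4 of 5 with a peak) the mean level was 655 to 735 in NSPs and 406 to 503 at 24 h, with all 4 peaks called lower. It was 421 to 495 at 72 h and 516 to 552 with TNF at 72 h, without overlap but with 0 of 4 called by limma-trend, and 593 to 652 at 1 week, with 3 of 4 called higher than at 72 h. Of the markers of other cells, 1 of 5 for microglia (P2ry12), 0 of 4 for endothelium and mural cells, 1 of 4 for fibroblasts (Col1a1), 3 of 4 for neurons and 1 of 4 for oligodendrocytes (Mag) had a peak at a gene end, none of which was called in either TNF comparison. Their part in the results below was not tested.

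Every gene had a peak within 1 kb of its start, which is called its start peak. For Adamts20 the start in the RefSeq promoter windows lies inside the longer RefSeq interval of the gene, so its start peak is an internal peak of that interval, and which start these cells use was not tested. The sequences in front of the starts are shown for 4 genes to set them beside these peaks: Adamts20 and Adamts9, which hold a match to the NF-κB consensus, and Adamts1 and Adamts12, whose start peaks were the only ones of the 8 called with TNF. Each run is the 250 bases before the start in RefSeq (GRCm38.p6), 5′ to 3′ on the strand of the gene, and capitals mark the NF-κB match.
Adamts20 (chr15:94404351-94404600, minus strand): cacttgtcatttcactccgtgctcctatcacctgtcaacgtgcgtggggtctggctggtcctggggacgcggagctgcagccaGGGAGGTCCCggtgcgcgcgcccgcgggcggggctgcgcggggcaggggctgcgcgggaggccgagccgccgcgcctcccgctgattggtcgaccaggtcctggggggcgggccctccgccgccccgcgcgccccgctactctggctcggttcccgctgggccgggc
Adamts9 (chr6:92943535-92943784, minus strand): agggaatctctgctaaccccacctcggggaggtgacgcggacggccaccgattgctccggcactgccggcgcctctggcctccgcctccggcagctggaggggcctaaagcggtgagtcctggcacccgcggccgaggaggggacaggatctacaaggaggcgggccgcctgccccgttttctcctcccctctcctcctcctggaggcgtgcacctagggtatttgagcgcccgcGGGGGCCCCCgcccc
Adamts1 (chr16:85803114-85803363, minus strand): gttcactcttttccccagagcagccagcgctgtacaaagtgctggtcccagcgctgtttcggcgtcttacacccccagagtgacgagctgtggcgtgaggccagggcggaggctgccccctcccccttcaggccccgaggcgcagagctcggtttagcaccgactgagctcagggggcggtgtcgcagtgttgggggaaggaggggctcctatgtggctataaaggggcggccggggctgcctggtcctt
Adamts12 (chr15:11064523-11064772, plus strand): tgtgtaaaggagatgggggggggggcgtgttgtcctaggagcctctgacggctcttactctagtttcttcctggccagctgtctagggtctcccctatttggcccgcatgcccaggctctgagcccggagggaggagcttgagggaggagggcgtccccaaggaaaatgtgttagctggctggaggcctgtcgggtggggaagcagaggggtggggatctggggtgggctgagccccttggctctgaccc

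Of the 5 members with a RefSeq window (these and Adamts17), the NF-κB consensus, searched on both strands, was found in Adamts20, 167 bases before the start, and in Adamts9, 15 bases before it. Among 32851 RefSeq windows of this length, 7.25% held the consensus. The AP-1 letters TGANTCA were in none of the 5 windows and in 6.75% of all, and the CRE letters TGACGTCA were in none of the 5 and in 1.55% of all. G and C made up 76.4% of the Adamts20 window, 71.2% of Adamts9, 65.6% of Adamts1, 63.2% of Adamts12 and 54.4% of Adamts17, against a median of 52.4% over all windows. A match is a run of letters and does not show that a factor was bound.

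The peak that singled out Adamts20 lay at chr15:94442922-94443422, 11.1 kb beyond the 5′ side of the annotated gene and 38.8 kb before the start used for the promoter window. Its level was 46.1, 58.4 and 50.5 normalised reads in the NSP libraries, 66.0, 47.2 and 51.7 at 24 h, 48.9, 65.8 and 44.6 at 72 h and 47.6, 35.1, 57.2 and 60.0 at 1 week. With TNF it was 514, 475 and 491 at 24 h and 586, 553 and 598 at 72 h. Every library with TNF was thus far above every library without it, and no library without TNF exceeded 66.0 reads at any time. The mean with TNF was 8.97 times the untreated mean at 24 h and 10.9 times at 72 h, with log2 fold changes of 3.16 ± 0.20 and 3.44 ± 0.20 (standard error, here and below). These values chose the peak, which had rank 3 among all increases by p-value at 24 h and rank 1 at 72 h. By size of fold change its ranks were 28 and 21. Without TNF, limma-trend called no change of this peak from NSP to 24 h (log2 fold change 0.08 ± 0.20), from 24 h to 72 h (-0.05 ± 0.20) or from 72 h to 1 week (-0.10 ± 0.19).

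The 5 peaks of the whole table most like it over the 19 libraries, by Pearson's r of log2(value + 1), were a peak in Ak5 (r = 0.971), a peak 52.1 kb from Csmd1 (0.971), a peak in Spata13 (0.97), a peak 25.2 kb from Ptprc (0.969) and a peak 28.6 kb from Ccl2 (0.969), which encodes a chemokine. All 5 share the step between libraries with and without TNF, which follows from choosing them by this likeness. The mean level of the Ak5 peak was 30.0 at 24 h and 359.9 with TNF, and that of the Ccl2 peak was 22.4 at 24 h and 206 with TNF. Among the other 90 peaks of the set the closest was one in Adamts9 (r = 0.671), which is described below. The peak of the set most opposed to it lay in Adamts17 (r = -0.69).

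The start peak of Adamts20 (chr15:94404079-94404579), at the internal start, did not follow that step. It held 842, 660.0 and 694 reads in NSPs and fell to 466, 425 and 333 at 24 h (log2 fold change -0.85 ± 0.14, adjusted p 9.29e-06; limma-trend, Benjamini-Hochberg over all peaks, as for every adjusted p below). At 72 h it fell further, to 320.4, 255 and 294 (log2 fold change -0.48 ± 0.14, adjusted p 0.0101; lost without 24 h replicate 1 at -0.38 or 72 h replicate 2 at -0.39), and at 1 week it held 302, 257, 317 and 283. With TNF its values were 512, 429.9 and 487 at 24 h and 411, 336 and 388 at 72 h, which overlapped the untreated values at 24 h and lay above them at 72 h. The difference with TNF was called at neither time by limma-trend. In the body of the gene, a peak at chr15:94303081-94303581 opened early, from 87.6, 129.5 and 112 reads in NSPs to 457, 372 and 405 at 24 h (log2 fold change 1.91 ± 0.16, adjusted p 6.06e-11), with means of 311 at 72 h and 218 at 1 week, a fall that was called between the last pair of times (log2 fold change -0.52 ± 0.15). A neighbour at chr15:94287958-94288458 rose from a mean of 135 to 243 and then fell below its NSP level, to 89.1 at 72 h (log2 fold change -1.43 ± 0.23) and 31.1 at 1 week (-1.51 ± 0.22). With TNF the means of these body peaks were 399.9 and 192 at 24 h, and their libraries overlapped those without TNF. At the 5′ end of the longer interval, a weak peak at chr15:94430895-94431395 rose from 9.93, 4.24 and 19.9 in NSPs to 46.7, 20.7 and 38.2 at 24 h (log2 fold change 1.69 ± 0.42, adjusted p 0.00147) and was not called with TNF. Of the 11 Adamts20 peaks, 4 rose and 2 fell from NSP to 24 h, 3 fell from 24 h to 72 h, and 1 rose and 3 fell to 1 week. Of all tested peaks, 24.2% rose and 23% fell in the first of these steps, 12% and 14.3% in the next, and 22.5% and 16.2% in the last.

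**Figure D1:**
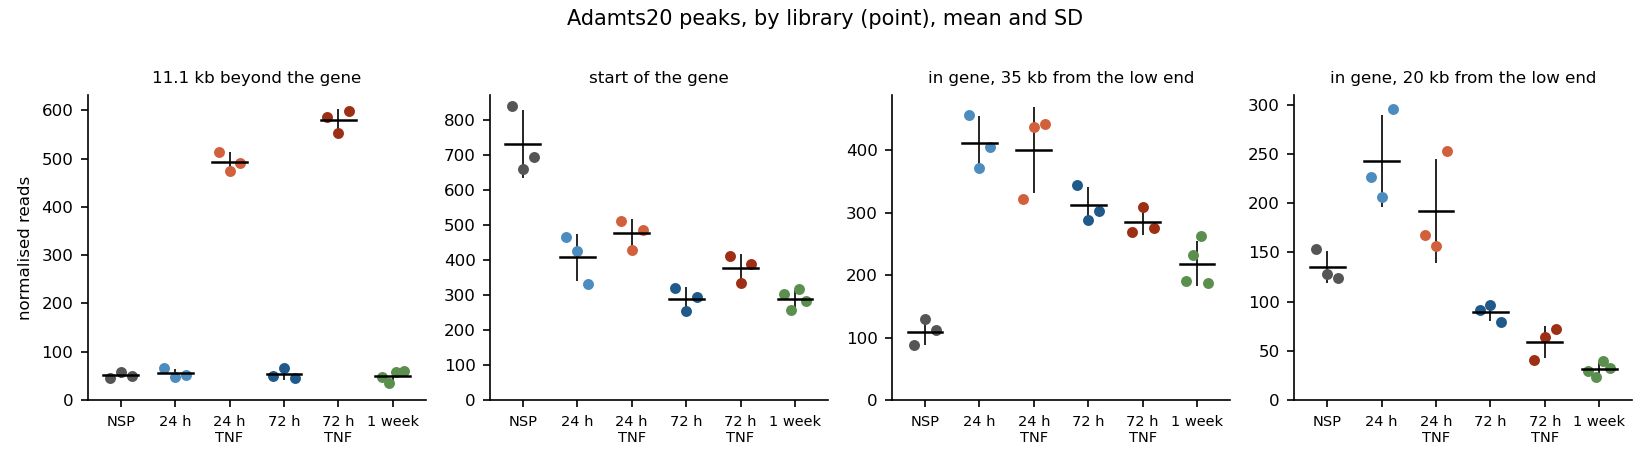
Normalised reads of 4 Adamts20 peaks (vertical axes, linear, from 0) in the 6 groups (horizontal axes). Points are libraries, the wide bar is the group mean and the thin line 1 SD; the peak 11.1 kb beyond the gene sits between 475 and 598 with TNF and at or below 66.0 in every other library, while the start peak is highest in NSPs and the body peaks are highest at 24 h.

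Over the whole set, TNF calls ran in both directions. At 24 h, 5 of the 91 peaks were called higher and 6 lower with TNF, where 7.06% and 3.53% of all tested peaks were called, that is 5.49% and 6.59% of the set. At 72 h, 5 were higher and 11 lower, against 6.24% and 5.55% of all peaks, or 5.49% and 12.1% of the set. The order at 24 h turned to 4 higher and 3 lower without 24 h replicate 1 or 24 h TNF replicate 2, and to 8 and 7 with peaks up to 50 kb from a gene, while without 24 h replicate 2 the counts were 2 and 3. At 72 h losses outnumbered gains in every setting tried, with 5 higher and 6 lower without 72 h replicate 1 and 2 and 7 without 72 h replicate 2. TNF calls over all tested peaks fell as well whenever a library of the compared groups was left out. The median log2 fold change of the set was -0.10 at 24 h and -0.12 at 72 h, beside -0.03 and 0.03 over all peaks. The higher calls of both times include the Adamts20 peak that chose the set. In the 7 genes other than Adamts20, 80 peaks held 4 higher and 6 lower calls at 24 h (5% and 7.5%). At 72 h these peaks held 4 and 11 (5% and 13.75%). The interaction of TNF with time was called at 0 of the 91 peaks by limma-trend, by edgeR and by DESeq2, and 6 had an unadjusted p under 0.05. Over all peaks it was called at 0.00112% by limma-trend, so a difference in the TNF response between the times was not shown for any peak named here.

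The largest TNF losses of the set were at Adamts9 and Adamts17. Beyond the 5′ side of Adamts9, a protease that cleaves versican and the nearest relative of Adamts20, a peak at chr6:92968766-92969266 held 286, 326 and 310.4 reads at 24 h and 74.3, 112 and 116 with TNF (log2 fold change -1.62 ± 0.37, adjusted p 0.00371). At 72 h it held 304, 225 and 194 and 61.7, 82.8 and 57.6 with TNF (log2 fold change -1.81 ± 0.37, adjusted p 0.00125). The libraries did not overlap at either time, and the untreated mean was 3.05 and 3.57 times the TNF mean. This peak opened on differentiation: 2 of the NSP libraries held 25.0 and 29.2 reads and replicate 1 held 162, against a mean of 307 at 24 h (log2 fold change 2.61 ± 0.37, and 3.46 ± 0.21 without NSP replicate 1). At 1 week it held 188, 178, 161 and 148. TNF libraries of both times thus lay below every untreated library at 24 h, 72 h and 1 week.

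In the body of Adamts17, 99.5 kb from its start, a peak at chr7:66938996-66939496 was also lower with TNF at both times. It held 104, 119 and 73.9 reads at 24 h against 57.5, 37.7 and 42.6 with TNF (log2 fold change -1.09 ± 0.25, adjusted p 0.00432), and 143, 182 and 131 at 72 h against 56.3, 73.9 and 32.4 with TNF (log2 fold change -1.53 ± 0.25, adjusted p 1.14e-04). Its NSP values were 66.0, 47.1 and 55.8, so the TNF libraries lay in or near the range of the NSPs, while untreated cells reached a mean of 178 at 1 week. Of the 19 Adamts17 peaks, 1 was lower with TNF at 24 h and 4 at 72 h, and none was called higher. Of all tested peaks, 3.53% and 5.55% were lower and 7.06% and 6.24% higher, and the count of called peaks in 1 gene is too small to set beside these shares. The other Adamts17 peaks called at 72 h were smaller: 98.5 against 55.2 reads at a peak 63.5 kb inside the gene, 74.1 against 41.6 at one near its 3′ end, and 104 against 45.3 at one 20.5 kb beyond it. The last (log2 fold change -1.17 ± 0.36, adjusted p 0.0287) was lost when any of 5 of the 6 libraries was left out, with log2 fold changes between -1.28 and -0.98. These 3 peaks rose between 24 h and 72 h without TNF, although the call of the last one was lost in 8 of the settings tried (log2 fold change 0.74 to 1.09).

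At Adamts6, a peak 14.3 kb beyond the gene (chr13:104510706-104511206) held 122, 76.6 and 79.0 reads at 72 h and 45.6, 42.9 and 24.0 with TNF (log2 fold change -1.30 ± 0.27, adjusted p 0.00143). At 24 h its values were 118, 103 and 111 and 53.9, 43.1 and 66.5, again without overlap (log2 fold change -1.03 ± 0.27, adjusted p 0.0112). The 24 h call was lost without replicate 1 at 24 h (log2 fold change -0.98) or without replicate 2 at 24 h with TNF (-0.88). A weaker peak in the gene, with a mean of 44.9 at 72 h and 22.5 with TNF, was also called lower at 72 h (adjusted p 0.0411). None of the 9 Adamts6 peaks was called higher, a number of peaks too small to set beside the shares of all peaks.

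Adamts12, the longest but one of the 8 genes, had the most peaks (22). With TNF, 1 was called higher and 3 lower at 24 h, and 1 and 4 at 72 h. These counts are too small to set beside the shares of all peaks. Close to its start, a peak at chr15:11066261-11066761 held 211, 226 and 218 reads at 72 h and 132, 96.1 and 86.4 with TNF (log2 fold change -1.07 ± 0.17, adjusted p 7.40e-05), while its neighbour nearer to the start held 153 and 129 on average and was not called. Further in, the peak at chr15:11179722-11180222 fell from 147, 154 and 189.9 to 107, 82.8 and 87.6 at 72 h (log2 fold change -0.82 ± 0.18, adjusted p 0.00337) and the one at chr15:11339642-11340142 from 102, 138 and 116 to 49.2, 69.5 and 56.4 (log2 fold change -1.01 ± 0.24, adjusted p 0.00579). Both were called at 24 h too, with log2 fold changes of -0.65 ± 0.18 and -0.85 ± 0.24. Those 24 h calls were lost when 24 h replicate 2 (-0.62 and -0.70) or 24 h TNF replicate 3 (-0.60 and -0.66) was left out, and the former also without 24 h replicate 1 (-0.60) or 24 h TNF replicate 2 (-0.46). The start peak of Adamts12 was lower at 24 h (a mean of 455 ± 7.24 against 346 ± 19.4 reads, SD, n = 3 each; log2 fold change -0.40 ± 0.12, adjusted p 0.0379), a call that was lost whenever any 1 of the 6 libraries was left out (log2 fold change -0.43 to -0.35).

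In the other direction, 1.4 kb beyond the 3′ end of Adamts12, a peak at chr15:11350380-11350880 held 107, 84.9 and 109.6 reads at 72 h and 224.4, 182 and 182 with TNF (log2 fold change 0.96 ± 0.21, adjusted p 0.00224). At 24 h its values were 121, 114 and 156 and 163, 139 and 172, which overlapped. A peak 53.8 kb inside Adamts12 rose at 24 h from 68.3, 28.0 and 61.6 to 102, 78.6 and 119 (log2 fold change 0.99 ± 0.27, adjusted p 0.0153). That call rested on 24 h replicate 2, without which the log2 fold change was 0.60 and the adjusted p 0.173, and it was also lost without 24 h TNF replicate 1 (0.97) or replicate 3 (0.85). On the deposited scaling, the untreated cells at 1 week had higher means at both peaks (226 and 238) than the TNF libraries at 72 h (196 and 168). This pair of groups was not tested, and levels at 1 week relative to 72 h depend on the scaling.

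In Adamts9 a body peak at chr6:92821943-92822443 rose with TNF at both times, from 35.3, 28.0 and 32.0 to 66.3, 72.2 and 106 reads at 24 h (log2 fold change 1.31 ± 0.28, adjusted p 0.00223) and from 45.0, 34.7 and 47.2 to 115, 68.0 and 93.6 at 72 h (log2 fold change 1.09 ± 0.28, adjusted p 0.00999). The groups did not overlap. The 72 h call was lost without 72 h replicate 2 (log2 fold change 0.95) or 72 h TNF replicate 1 (0.91). A neighbour at chr6:92827369-92827869 held 64.9, 59.0 and 71.4 at 24 h and 109.7, 141 and 127 with TNF (log2 fold change 0.94 ± 0.28, adjusted p 0.0254), but 217, 171 and 185 and 241, 217 and 204 at 72 h, which overlapped. Its 24 h call was lost when 24 h replicate 1 or 2 or 24 h TNF replicate 2 or 3 was left out (0.85 to 0.94). Gains and losses with TNF thus lay within 1 gene region: of the 14 Adamts9 peaks, 2 were higher and 1 lower at 24 h, and 1 was higher and 1 lower at 72 h.

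Adamts1 encodes a proteoglycanase that also cleaves versican. Its start peak held 369, 341 and 439.7 reads at 72 h and 470.3, 531 and 552 with TNF, a small difference without overlap (log2 fold change 0.44 ± 0.11, adjusted p 0.00751). It was lost without 72 h replicate 2 (log2 fold change 0.36, adjusted p 0.0594). A weak peak 2.3 kb beyond its 3′ end held 37.3, 25.1 and 26.8 at 72 h and 76.0, 81.3 and 52.8 with TNF (log2 fold change 1.21 ± 0.37, adjusted p 0.0282), a call lost in 4 of the 6 fits that left out a library (1.09 to 1.14). At 24 h no Adamts1 peak was called. None of the 3 peaks of the aggrecanase gene Adamts5 was called at either time, and of the 10 peaks around Adamts4, another aggrecanase gene, 1 was called higher at 24 h and 0 at 72 h by limma-trend, counts too small to set beside the shares of all peaks.

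**Figure D2:**
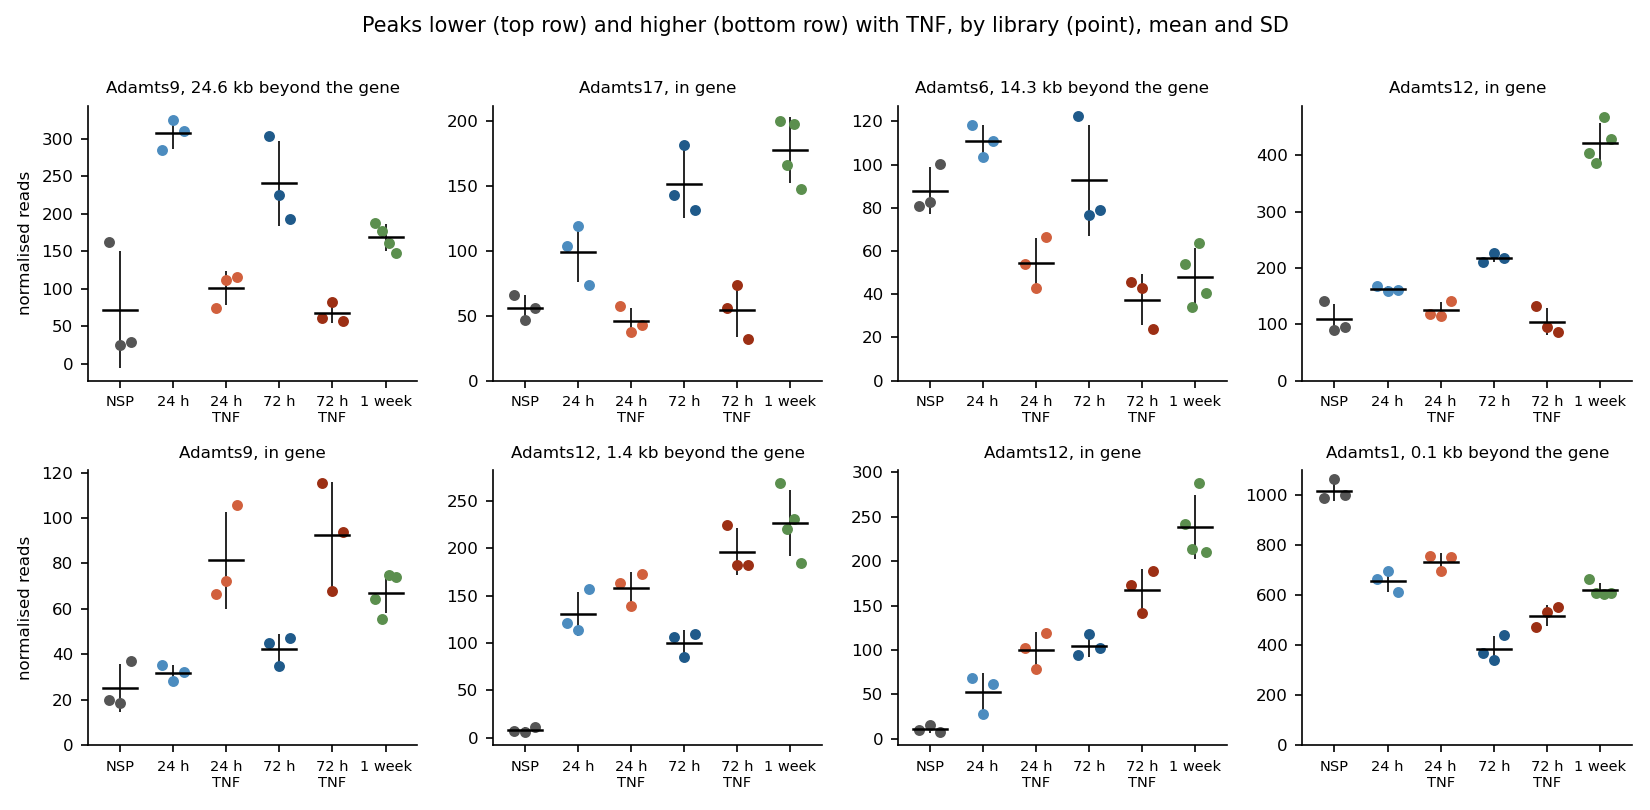
Normalised reads of 8 peaks called with TNF (vertical axes, linear) in the 6 groups (horizontal axes), with peaks lower with TNF in the upper row and higher in the lower row. Points are libraries, wide bars group means and thin lines 1 SD; at the Adamts9 peak 24.6 kb beyond the gene the TNF libraries sit between 57.6 and 116 and the untreated ones at 24 h and 72 h between 194 and 326.

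Differentiation without TNF moved more of these peaks than TNF did, as it did over all tested peaks. From NSP to 24 h, 23 of the 91 were called higher and 23 lower (25.3% each), beside 24.2% and 23% of all tested peaks. From 24 h to 72 h, 12 were higher and 17 lower, beside 12% and 14.3%. From 72 h to 1 week, 26 were higher and 11 lower, beside 22.5% and 16.2%. As shares of the set these were 13.2% and 18.7% at 72 h and 28.6% and 12.1% at 1 week. Scaling to total reads in place of the deposited scaling moved the median of the whole table (log2 fold change -0.07 became 0.11 at 24 h against NSP, and 0.02 became -0.31 at 1 week against 72 h), and the splits of the set became 27 higher and 17 lower for the former and 9 higher and 30 lower for the latter.

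The start peaks lost accessibility at the outset. From NSP to 24 h, 6 of the 8 were lower and 0 higher by limma-trend, by edgeR and by DESeq2 (7 had an unadjusted p under 0.05, and all 8 fold changes were negative, with a median log2 fold change of -0.57). Over all peaks within 1 kb of a gene end, 39.3% were lower and 6.27% higher in this step, so a loss at gene ends was common in the series. The other 83 peaks of the set had 23 higher and 17 lower. Over all tested peaks, gene ends included, 24.2% were higher and 23% lower, so a contrast between gene ends and other peaks ran through the whole table. At Adamts6 the start peak fell from 924, 621 and 777 reads to 291, 323 and 313 (log2 fold change -1.30 ± 0.13, adjusted p 3.05e-09), and stayed between 289 and 386 in every later library.

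The start peak of Adamts1 fell from 987, 1063 and 1001 reads in NSPs to 663, 695 and 611 at 24 h (log2 fold change -0.63 ± 0.11, adjusted p 2.22e-05) and to 369, 341 and 439.7 at 72 h (log2 fold change -0.78 ± 0.11). It then rose to 663, 608, 605 and 608 at 1 week (0.70 ± 0.10), a rise called in every setting tried. That of Adamts12 fell from a mean of 648 ± 62.3 (SD, n = 3) to 455 ± 7.24 at 24 h (n = 3) and 284 ± 30.9 at 72 h (n = 3), with log2 fold changes of -0.50 ± 0.12 and -0.68 ± 0.12. At Adamts9 the mean fell from 662 ± 60.0 to 492 ± 48.6 (log2 fold change -0.43 ± 0.12, adjusted p 0.00382), a call that was lost when total reads (log2 fold change -0.24) or loess offsets (-0.24) set the scale. Adamts5 (164 ± 11.4 and 125 ± 1.48, adjusted p 0.0705) and Adamts17 (1007 ± 63.7 and 921 ± 58.6, adjusted p 0.302) had no call in this step. The start peak of Adamts17 was among the strongest of the set. It rose to 1168, 1244, 1362 and 1282 at 1 week against 951, 816 and 938 at 72 h (log2 fold change 0.49 ± 0.09), a rise whose call was lost with total reads and whose sign turned to -0.06 with loess offsets. From 72 h to 1 week 3 of the 8 start peaks rose and 0 fell, where 54.0% of all peaks within 1 kb of a gene end were higher and 6.12% lower, but 1 rose and 3 fell with total reads, and 1 rose and 2 fell with loess offsets.

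**Figure D3:**
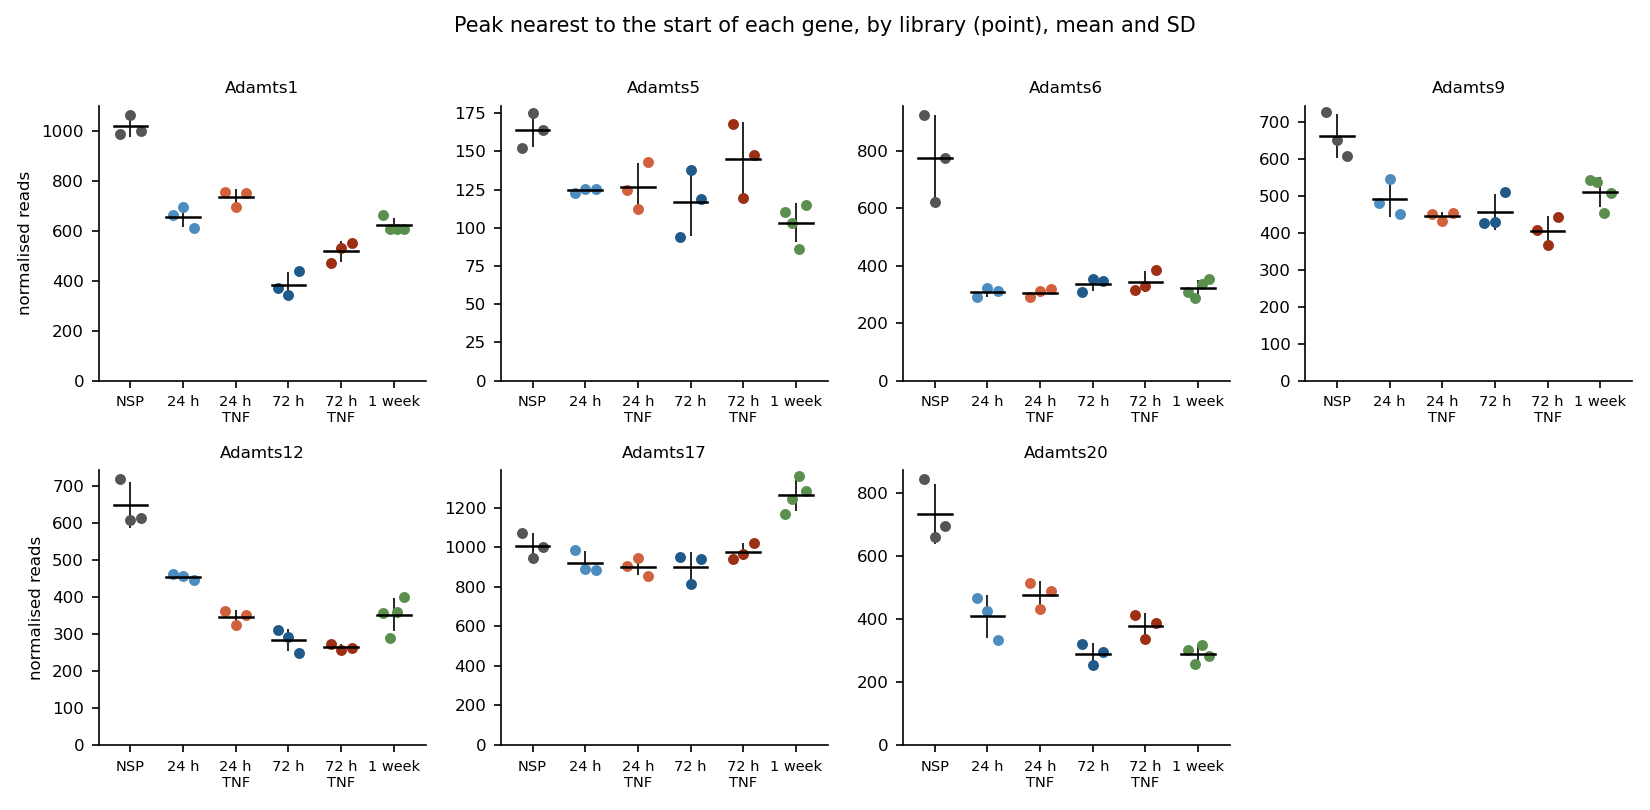
Normalised reads of the start peak of 7 genes, all but Adamts4 (vertical axes, linear, from 0) in the 6 groups (horizontal axes). Points are libraries, wide bars group means and thin lines 1 SD; the mean of 6 of the 7 is highest in NSPs and that of Adamts17 at 1 week.

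Away from the starts, several peaks were nearly closed in NSPs and opened within 24 h. The strongest gain of the set was the Adamts12 peak 1.4 kb beyond the 3′ end, with 7.59, 6.12 and 11.3 reads in NSPs and 121, 114 and 156 at 24 h (log2 fold change 3.84 ± 0.21, adjusted p 5.73e-15), a mean 15.6 times as high. In Adamts5, whose product is an aggrecanase, a peak inside the gene (chr16:85898415-85898915) held 15.2, 1.41 and 1.99 in NSPs and 66.0, 54.6 and 87.4 at 24 h (log2 fold change 3.82 ± 0.39, adjusted p 4.19e-09). Without NSP replicate 1, the highest of the 3, the log2 fold change was 4.68 ± 0.25. It was level at 72 h (70.8, 59.8 and 65.0) and rose again to 249.5, 219.8, 304 and 213 at 1 week (log2 fold change 1.89 ± 0.37, adjusted p 2.08e-04). The Adamts9 body peak at chr6:92827369-92827869 climbed at each step, from 8.18, 1.41 and 4.65 in NSPs to means of 65.1, 191 and 357, or log2 fold changes of 3.72 ± 0.28 (4.16 ± 0.23 without NSP replicate 1), 1.54 ± 0.28 and 0.90 ± 0.26. The call of the 1 week step was lost with total reads (log2 fold change 0.56, adjusted p 0.0753).

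Other openings came at different times. The Adamts12 peak 53.8 kb inside the gene rose at each step, with means of 11.3, 52.6, 105 and 238 reads from NSP to 1 week, although the call from 24 h to 72 h was lost without 24 h replicate 2 (log2 fold change 0.68, adjusted p 0.0579). In Adamts17 a peak at chr7:66880952-66881452 was low at 24 h (7.97, 7.38 and 1.23) and opened by 72 h (37.3, 34.7 and 77.8, log2 fold change 3.11 ± 0.52, adjusted p 6.43e-05), reaching 126, 115, 92.4 and 136 at 1 week. Its values with TNF at 72 h were 22.4, 19.2 and 25.2, below every untreated library of that time, but the difference was not called (adjusted p 0.211). The Adamts17 peak at chr7:67055462-67055962 opened early, from 27.5, 31.6 and 43.2 to 147, 156 and 170.0 (log2 fold change 2.20 ± 0.23, adjusted p 3.70e-09), and then fell to 90.1, 96.9 and 87.9. In Adamts6 a peak near the end of the gene away from its start peak was highest at 24 h, with 10.5, 13.7 and 17.9 reads in NSPs, 54.6, 59.0 and 103 at 24 h (log2 fold change 2.26 ± 0.35, adjusted p 4.87e-06) and 30.9, 17.9 and 33.1 at 72 h (log2 fold change -1.36 ± 0.35).

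Peaks that closed lay in the same genes. In Adamts5 the peak at chr16:85887718-85888218 fell from 231, 159 and 205 reads in NSPs to 70.6, 67.9 and 43.1 at 24 h (log2 fold change -1.71 ± 0.41, adjusted p 0.00105) and reached 7.05, 8.57, 4.40 and 23.6 at 1 week, so that the pair of Adamts5 peaks away from the start ran in opposite directions. In Adamts17 the peak at chr7:66912703-66913203 fell from 291, 484 and 546 to 100.2, 137 and 111 (log2 fold change -1.88 ± 0.24, adjusted p 1.48e-07; -2.15 ± 0.23 without NSP replicate 1, the lowest of the 3). In Adamts12 the peak at chr15:11179722-11180222 fell from 466, 657 and 714 to 225, 219.8 and 187 (log2 fold change -1.52 ± 0.18, adjusted p 8.82e-08; -1.70 ± 0.18 without NSP replicate 1) and its neighbour at chr15:11165810-11166310 from a mean of 241 to 49.3 and on to 24.1 at 72 h (log2 fold change -2.15 ± 0.32 in the earlier step, and -2.58 ± 0.34 without NSP replicate 1). Beyond Adamts6 a peak at chr13:104499658-104500158 fell from 262, 271 and 310.3 to 116, 109 and 108 and then to 57.9, 40.7 and 58.6, with log2 fold changes of -1.33 ± 0.24 and -1.09 ± 0.24.

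By gene, the calls from NSP to 24 h numbered 1 higher and 2 lower at Adamts1, 0 and 3 at Adamts4, 1 and 1 at Adamts5, 3 and 3 at Adamts6, 5 and 2 at Adamts9, 4 and 6 at Adamts12, 5 and 4 at Adamts17 and 4 and 2 at Adamts20. In the same order the genes had 3, 10, 3, 9, 14, 22, 19 and 11 peaks. Of all tested peaks, 24.2% were higher and 23% lower in this step. The shares were 12% and 14.3% from 24 h to 72 h, and 22.5% and 16.2% from 72 h to 1 week. No gene was tested against these shares. From 24 h to 72 h, Adamts12 lost at 7 peaks and gained at 3, Adamts17 gained at 6 and lost at 2, and Adamts9 gained at 3 and lost at 0. From 72 h to 1 week Adamts17 gained at 7 and lost at 1, Adamts12 gained at 5 and lost at 3, Adamts4 gained at 5 and Adamts9 at 4 with 0 lost at either, and Adamts6 gained at 1 and lost at 3. The 5 gains around Adamts4 all lay nearer to other genes, among them Apoa2, B4galt3, Ppox and Usp21. The strongest peak of the set was among them, 27.5 kb from Adamts4 and nearest to Apoa2, with a mean of 1545 reads at 72 h and 2538 at 1 week (log2 fold change 0.71 ± 0.10, but 0.02 and no call with loess offsets).

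**Figure D4:**
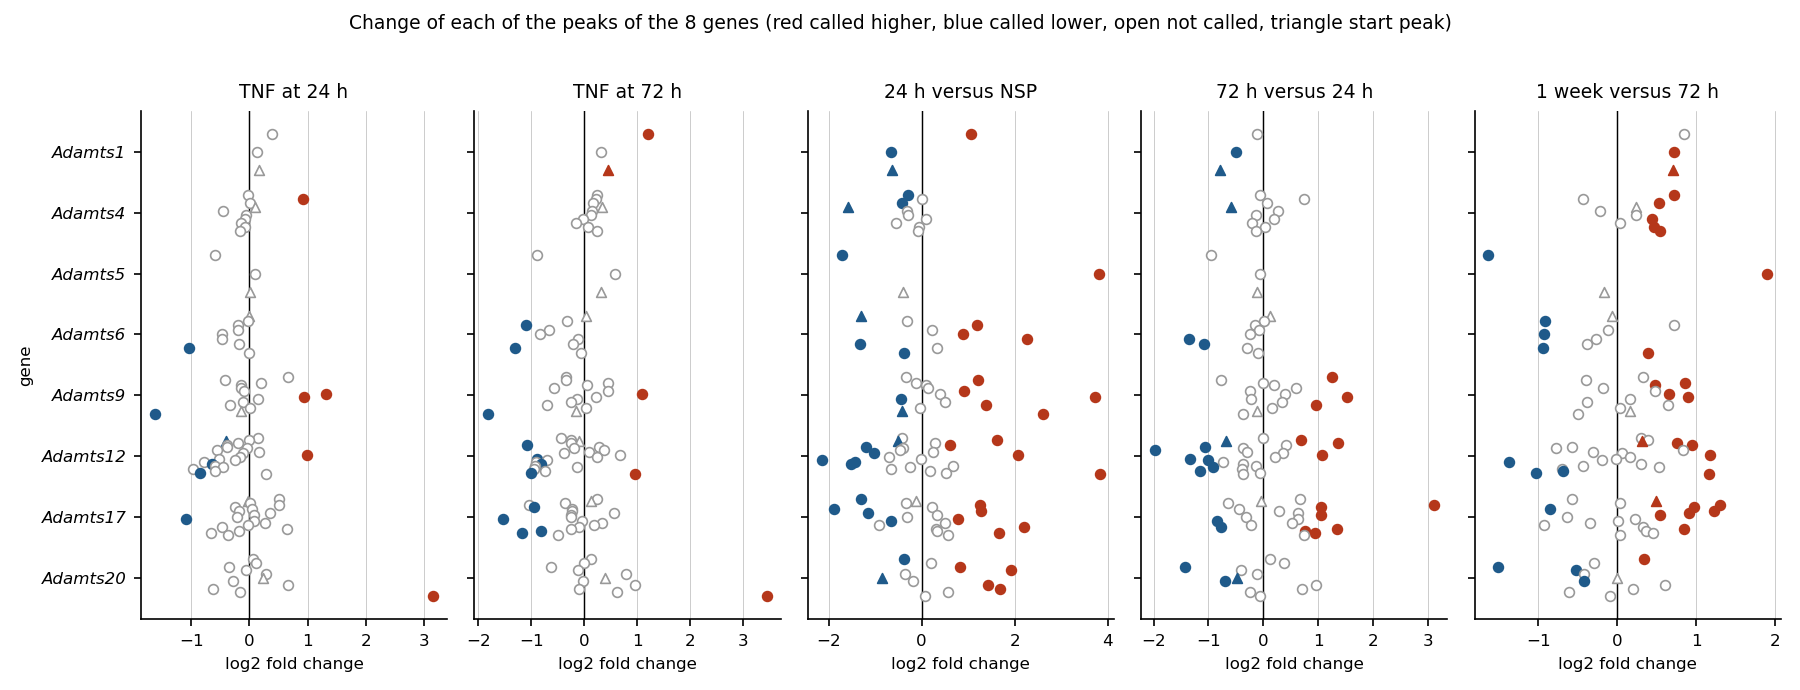
Log2 fold change (horizontal axes) of each of the 91 peaks, by gene (vertical axis) and comparison (panels, each with its own range). Red points were called higher and blue lower at an adjusted p under 0.05, open points were not called, and triangles are start peaks; the peak beyond Adamts20 stands alone at 3.16 and 3.44 in the TNF panels, and the start peaks lie left of 0 in the panel of 24 h against NSP.

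The related genes were counted in the same way. The 11 other Adamts genes had 108 peaks, of which 6 gained and 3 lost accessibility after 24 h of TNF, 7 gained and 6 lost it after 72 h, and 31 rose and 18 fell from NSP to 24 h. These are 5.56% and 2.78%, 6.48% and 5.56%, and 28.7% and 16.7% of their peaks, to be read against the shares of all peaks given above. Their median log2 fold change with TNF was -0.02 at 24 h and 0.01 at 72 h. The Adamts-like genes and inhibitors (Adamtsl1 to Adamtsl5, Papln and Timp1 to Timp4, where Timp3 is a known ADAMTS inhibitor) had 109 peaks, with 11 higher and 2 lower at 24 h with TNF and 11 and 9 at 72 h, and 34 higher and 19 lower from NSP to 24 h (10.1% and 1.83%, 10.1% and 8.26%, and 31.2% and 17.4%). The matrix genes that ADAMTS enzymes act on or near (Acan, Bcan, Ncan, Vcan and Hapln1 to Hapln4, the link proteins) had 43 peaks. Of these, 1 gained and 3 lost accessibility after 24 h of TNF, and 1 and 5 after 72 h. The shares of all tested peaks were 7.06% and 3.53%, and 6.24% and 5.55%. From NSP to 24 h, 3 rose while 16 fell (6.98% and 37.2%, with a median log2 fold change of -0.27), beside 24.2% and 23% of all tested peaks. Among peaks within 1 kb of a gene end the shares were 6.27% and 39.3%, but how many of the 43 were such peaks is not given here.

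The limit of 30 kb decided which peaks belonged. The TNF peak beyond Adamts20 lay inside it when measured from the longer RefSeq interval, but outside it when measured from the internal start. The farthest peaks inside it lay 28.9 kb from Adamts9 and 27.5 kb from Adamts4, with mean levels of 68.6 and 1885 reads, and the nearest outside lay 31.1 kb from Adamts12 and 32.6 kb from Adamts4, with mean levels of 46.5 and 168. With a limit of 50 kb, 8 peaks in place of 5 were higher with TNF at 24 h.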

How the data were processed

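ATAC-seq of 19 libraries was analysed, each placed in a group by its sample title. The authors used Trim Galore for trimming, Bowtie2 for alignment (mm10 per the labels' processing notes), SAMtools to drop mitochondrial reads, MACS2 for peaks, a blacklist, HOMER for annotation and DiffBind for testing. FastQC is also named in the notes. Versions, any correction of cut positions and the scaling of the table are not given in the sources used here. As deposited, the values are a signal (normalised reads) for each peak in each library. All values were whole multiples (within 0.01) of the worth of 1 read in their library, so the table held reads divided by a size factor, and the reads were recovered. No column of per-sample values was left unused.

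Values were transformed as log2(value + 1) and fitted with limma-trend (limma 3.58.1, R 4.3.3), with 1 mean per group and no covariate. This scale understates the change of low peaks. The filter of edgeR (4.0.16) with a minimum count of 10 on the recovered reads left 88919 of 90154 peaks to test (1235 left out). Tests were two-sided, with Benjamini-Hochberg adjustment over these peaks, and a peak was called at an adjusted p under 0.05. The fit was tested on simulated data. Replicates are separate samples by their titles, and p-values measure the spread between these samples. Values counted from reads cover counting error only through that spread.

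Gene positions came from RefSeq (GRCm38.p6). The strand of Adamts4, Adamts5 and Adamts6 was not used, so their start peak is the one nearest to either end. Exons and introns were not assigned. Some peaks around Adamts4 enter the counts but are not reported singly here. The 8 genes, the related gene lists and the markers were chosen with earlier results of these data known. Named peaks were the TNF peak of Adamts20, the start peak and the strongest peak of each gene, up to 2 peaks per gene and direction with the smallest p among TNF calls without overlap, and the peak with the smallest p in each direction among calls of the other comparisons. Other peaks were mentioned after their values were seen. Alternatives were a pseudocount of 5, no filter, total reads and loess scaling, edgeR quasi-likelihood with TMM and DESeq2 (1.42.0) on the recovered reads, windows of 10 and 50 kb, the replicate number as a block, and leaving out each library.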

Additional observations from a re-analysis of the deposited data

Results flagged for a closer look

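In the 1 week group, the only one with 4 libraries, the gap of the farthest library to its nearest neighbour exceeded Dixon's 95% critical value at 3 of the 39 named peaks, where chance alone flags about 1 in 20 groups. At the Adamts20 peak at chr15:94254467-94254967, 1 week replicate 4 held 507 normalised reads beside 519.3 to 519.8 in the others, a small gap in a narrow group. The start peak of Adamts1 held 663 in replicate 1 and 605 to 608 in the others. The Adamts9 peak at chr6:92850141-92850641 held 724 in replicate 3, the shallowest library of the series, and 471 to 509 in the others. That Adamts9 peak was not called between 72 h and 1 week (limma-trend log2 fold change 0.17 ± 0.12, adjusted p 0.301).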

How the results depend on the processing

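Most results held when the processing was varied. Of 2574 values of the 39 named peaks under the alternatives, 2430 kept a call in the same direction or stayed without a call. Another 108 lost a call, 29 gained one, and 7 turned sign with a call before or after the change. The sign of values without a call in both fits was not compared. Of 90 calls, 58 were kept in every setting. With a window of 50 kb, 8 peaks were higher with TNF at 24 h (5 at 30 kb), because peaks farther out were added, and DESeq2 called 8 higher with TNF at 72 h (5 by limma-trend). Scaling to total reads gave 9 higher and 30 lower peaks at 1 week against 72 h (26 and 11 before), because the whole table shifts. The 7 values that turned sign in this sense all belong to 1 week against 72 h. With total reads they were -0.035 for the Adamts12 start peak, -0.0091 for the Adamts20 peak at chr15:94254467-94254967 and -0.34 for the Adamts20 start peak. With loess offsets they were -0.0055 for the Adamts6 peak at chr13:104518254-104518754, -0.016 and -0.32 for the same Adamts20 peaks and -0.065 for the Adamts17 start peak.

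Leaving out 1 library at a time gave 2 to 4 gains and 3 to 5 losses with TNF at 24 h, and 2 to 5 gains and 6 to 9 losses with TNF at 72 h. The lowest counts came without 24 h replicate 2 (2 higher and 3 lower), 24 h replicate 1 or 24 h TNF replicate 2 (3 lower), 72 h replicate 2 (2 higher) and 72 h replicate 1 (6 lower). At 24 h against NSP the counts were 21 to 24 higher and 21 to 23 lower, at 72 h against 24 h 8 to 12 and 15 to 16, at 1 week against 72 h 23 to 25 and 8 to 14, and 0 for the interaction. The count of 8 came without 72 h replicate 1. Over all tested peaks, TNF calls at 24 h fell from 6274 higher and 3136 lower to 4491 and 1525 without 24 h replicate 1. Without 24 h replicate 2 they numbered 4697 and 1864. TNF calls at 72 h fell from 5551 higher and 4932 lower to 3782 and 2829 without 72 h replicate 1. Without 72 h replicate 2 they numbered 4090 and 3618.

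The groups share replicate numbers in their titles, but libraries with the same title number did not deviate together (correlations of -0.04 to 0.11). The library names of the TNF samples at 72 h carry other numbers than their titles. Pairing by library name was not tested, so a shared origin of samples is not settled here. With the replicate number of the title as a block, TNF calls numbered 5 gains and 6 losses at 24 h, and 6 and 11 at 72 h. The other comparisons gave 22 and 23 at 24 h against NSP, 12 and 18 at 72 h against 24 h, 24 and 12 at 1 week against 72 h, and 0 for the interaction. With 3 libraries a group and 9640256 to 39349111 reads in peaks, small changes of weak peaks were not detectable at this depth. A peak near a gene is not shown to act on it, and expression was not analysed here.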
